A study of Homo sapiens with 12 samples.

Results

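The genes described here encode the subunits of the mitochondrial oxidative phosphorylation system, and their RNA levels were compared between siKMT9α#1 and siCtrl in a pair of bladder carcinoma lines, CAL-29 and 5637. The members were the gene symbols of the deposited count tables that begin with the names of the nuclear-encoded subunits of the respiratory chain and ATP synthase (NDUFA, NDUFB, NDUFC, NDUFS and NDUFV with a number, UQCR, COX4 to COX8, ATP5, SDHA to SDHD) together with CYC1. This name rule took 94 of 23064 symbols. It placed 41 symbols in complex I, 4 in complex II, 11 in complex III, 17 in complex IV and 21 in complex V. Of the 94, 78 were subunits in general use, 9 were tissue-restricted isoforms or gene copies, 2 were readthrough transcripts, 2 were pseudogenes, and the remaining symbols were the inhibitor ATP5IF1, the antisense RNA NDUFB2-AS1 and the divergent transcript NDUFA6-DT. The subunits encoded by mitochondrial DNA were not analysed here.

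Oxidative phosphorylation couples the oxidation of NADH and succinate to the synthesis of ATP across the inner mitochondrial membrane. Complex I (NADH dehydrogenase) and complex II (succinate dehydrogenase, also an enzyme of the TCA cycle) pass electrons to ubiquinone, complex III passes them on to cytochrome c, and complex IV passes them to oxygen. Complexes I, III and IV pump protons, and complex V (ATP synthase) uses the proton gradient to make ATP. Most subunits are encoded in the nucleus and imported, and complex II is the only complex without a subunit encoded by mitochondrial DNA.

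Both lines are established from human bladder carcinoma and are given as wild type in the labels. RNA was taken 3 days after treatment with siKMT9α#1, directed against KMT9α, or with the control siRNA siCtrl, and each of the 4 groups held 3 libraries. The culture medium, the siRNA concentration and the transfection reagent differed between the lines. None of them can be told apart from the cell line in any comparison of CAL-29 with 5637. A single siRNA against KMT9α was sequenced. The labels do not say whether the 3 libraries of a group came from separate cultures, so p-values measure only the spread between these libraries, which may be technical.

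N6AMT1, the gene of KMT9α, was at 11.4, 10.2 and 9.68 CPM (counts scaled to a library size of 1e+06) in the siCtrl libraries of CAL-29 and at 2.82, 2.93 and 1.99 CPM with siKMT9α#1, and in 5637 at 13.4, 13.2 and 13.3 against 3.75, 2.21 and 2.56 CPM. N6AMT1 fell to 24.7% of the siCtrl level in CAL-29 (edgeR quasi-likelihood test, adjusted p = 1.33e-10) and to 21.4% in 5637 (adjusted p = 1.05e-15). Libraries held between 24479348.5 and 35151256.5 counts on the transcripts kept. All 6 epithelial markers were present in both lines, while PTPRC, PECAM1 and DCN, markers of leukocytes, endothelium and fibroblasts, were at or near 0, with PTPRC the highest of them at a mean of 0.21 CPM in CAL-29 siCtrl. The 8 markers of other cell types together gave between 12.6 and 13.1 CPM in siCtrl and between 18.6 and 20.8 CPM with siKMT9α#1 in CAL-29, and between 10.1 and 12.3 against at most 11.8 CPM in 5637. Of these 8, 4 had a mean of at least 1 CPM in CAL-29 siCtrl and 3 in each of the other groups. Those were among CD68, VWF, LUM, ACTA2 and MYH11, so the low PTPRC, PECAM1 and DCN do not speak for the whole list. The summed epithelial markers moved with the siRNA. They went from between 10870 and 11240 to between 5217 and 5355 CPM in CAL-29. In 5637 they went from between 7385 and 7735 to between 4826 and 5062 CPM. The 7 urothelial markers together went from between 2781 and 3072 to between 1424 and 1471 CPM in CAL-29. Their sum in 5637 went from between 1485 and 1572 to between 1287 and 1310 CPM. The part of these marker changes in the results below was not tested. One library of CAL-29 stood apart: siCtrl replicate 1 gave chi-square values of 8.19 and 12.3 per degree of freedom against the other siCtrl replicates, where all other pairs of replicates of a group lay between 2.24 and 3.97. Counts and medians over the members in CAL-29 are also given without it.

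In CAL-29 cells, most of the oxidative phosphorylation genes were higher with siKMT9α#1. The members took 0.503, 0.566 and 0.571% of all counts in the siCtrl libraries and 0.645, 0.671 and 0.659% with siKMT9α#1, so the groups did not overlap. Of 86 members with enough counts to be tested, 56 rose and 7 fell at an adjusted p below 0.05, the threshold for "rose" and "fell" throughout, where 34.3% of the 14673 genes tested rose and 35.2% fell. The share of members that rose was 65.1%, the share that fell 8.14%. The median log2 fold change of the members was 0.22, a factor of 1.17, beside -0.02 for all genes tested, and members ranged from -1.57 for COX6B2 to 0.74 for ATP5F1D. At the unadjusted p of 1e-06 that the study used to define differentially expressed genes, 13 of the 86 members rose and 1 fell. Past that threshold 15.0% of all genes rose and 15.0% fell. Rises were thus about as frequent among the members as over all genes, and falls less frequent. The 13 became 5 without siCtrl replicate 2, 7, 5 and 4 without siKMT9α#1 replicates 1, 2 and 3, and 28 with a replicate block or with no filter. The siKMT9α#1 libraries lay entirely above siCtrl for 54 members and entirely below for 5, where this held for 35.6% and 36.7% of all genes. Without siCtrl replicate 1, 49 members rose and 9 fell, with a median of 0.16, and past 1e-06 there were 16 that rose and 2 that fell.

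The members moved both ways in 5637 cells. There the members took 0.832, 0.852 and 0.849% of the counts in siCtrl and 0.791, 0.824 and 0.806% with siKMT9α#1. These groups did not overlap either, with siKMT9α#1 the lower. Of the 86 members tested, 27 rose and 30 fell, beside 35.1% and 35.6% of 14335 genes, so the shares of 31.4% and 34.9% were close to those of all genes. The median was 0.00, beside -0.01 over all genes. Past an unadjusted p of 1e-06, 7 members rose and 10 fell, where 18.0% and 17.6% of all genes did. Without siKMT9α#1 replicate 2 there were 3 that rose, and without replicate 3 there were 4 that rose and 6 that fell. The siKMT9α#1 libraries lay entirely above siCtrl for 26 members and entirely below for 29, against 35.8% and 36.6% of all genes. When libraries were scaled by their total counts in place of TMM, 22 members rose and 37 fell in 5637. That scaling lowered all genes alike, with a median of -0.059 over all genes tested and -0.053 for the members.

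**Figure D1:**
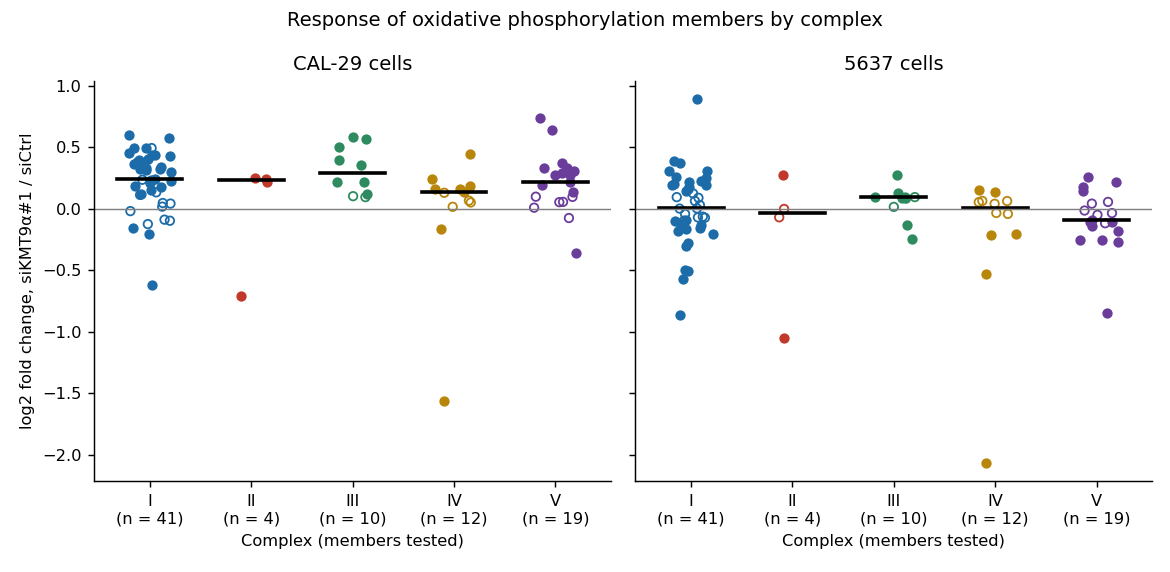
Log2 fold change of each tested member, siKMT9α#1 over siCtrl, by complex in CAL-29 (left) and 5637 cells (right). Each point is 1 member, filled where the adjusted p was below 0.05 and open otherwise, and the black line is the median. In CAL-29 the median of every complex lies above 0, between 0.13 for complex IV and 0.29 for complex III. In 5637 the medians lie between -0.09 for complex V and 0.09 for complex III, and they move with the scaling, to -0.15 and 0.040 with total counts.

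By complex, the medians in CAL-29 were 0.24 for complex I, 0.23 for complex II, 0.29 for complex III, 0.13 for complex IV and 0.22 for complex V. Without siCtrl replicate 1 they were 0.22, 0.18, 0.23, 0.091 and 0.16. Members that rose were 27 of 41 in complex I, 3 of 4 in complex II, 8 of 10 in complex III, 6 of 12 in complex IV and 12 of 19 in complex V. Of all genes tested in CAL-29, 34.3% rose. In 5637 the medians were 0.00, -0.03, 0.09, 0.00 and -0.09 in the same order. With total count scaling they were -0.050, -0.089, 0.040, -0.050 and -0.15, and that of complex V was -0.029 without siCtrl replicate 2. Complex III there had 5 members that rose and 2 that fell of 10, and complex V had 4 that rose and 9 that fell of 19. Among all genes tested in 5637, 35.1% rose and 35.6% fell. Per library, the median level of the complex V members relative to the siCtrl mean was -0.11, -0.06 and -0.08 with siKMT9α#1 in 5637 and -0.04, 0.04 and 0.01 in siCtrl. In CAL-29 the same quantity was 0.15, 0.30 and 0.21 with siKMT9α#1 and -0.13, 0.05 and 0.08 in siCtrl, and the lowest siCtrl value belonged to replicate 1. The complexes were not tested against each other.

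**Figure D2:**
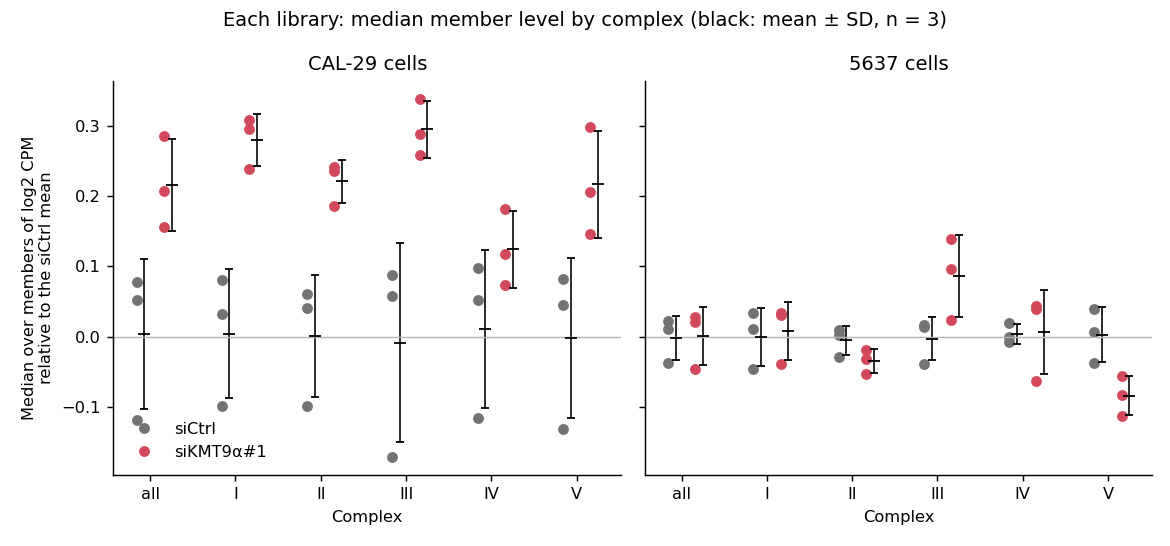
Median over the tested members of each complex of the log2 CPM relative to the siCtrl mean of the line, for each library (grey siCtrl, red siKMT9α#1), with the mean ± SD of 3 libraries in black. In CAL-29 the siKMT9α#1 libraries lie above all siCtrl libraries for complexes I, II, III and V and overlap them for complex IV, with siCtrl replicate 1 the lowest library in every complex. In 5637 the siKMT9α#1 libraries lie above siCtrl for complex III and below it for complex V, and the other complexes overlap.

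Complex II gave the largest fall of any well-counted subunit, in 1 of its 4 members. SDHA is the flavoprotein that oxidises succinate, SDHB carries the iron-sulfur clusters, and SDHC and SDHD anchor both in the inner membrane. SDHC (chromosome 1, 161284171 to 161332996, GRCh37) stood at 64.4, 71.5 and 73.8 CPM in siCtrl and at 43.4, 42.0 and 42.9 CPM with siKMT9α#1 in CAL-29, and at 82.7, 77.2 and 78.9 against 38.7, 37.1 and 39.8 CPM in 5637. The groups did not overlap in either line, with siKMT9α#1 the lower. SDHC fell by 0.71 ± 0.06 in CAL-29 (adjusted p = 7.39e-10) and by 1.05 ± 0.04 in 5637 (adjusted p = 2.95e-18), leaving 61.2% and 48.4% of the control level. It was the largest fall past an unadjusted p of 1e-06 in each line among members with a mean count of at least 50, and the fall was smaller in CAL-29 by 0.35 ± 0.07 (interaction, adjusted p = 0.000228).

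SDHD, its partner in the membrane anchor, was at 48.2, 54.8 and 56.6 CPM in siCtrl and 63.8, 64.2 and 60.7 CPM with siKMT9α#1 in CAL-29, where it rose by 0.24 ± 0.06 (adjusted p = 0.00124). In 5637 it was at 70.5, 73.0 and 73.6 against 74.4, 70.9 and 71.7 CPM, with overlapping groups. SDHB rose in both lines, by 0.25 ± 0.06 in CAL-29 (adjusted p = 0.000857) and by 0.27 ± 0.04 in 5637 (adjusted p = 3.09e-07). SDHB libraries read 36.0, 40.1 and 38.2 CPM in siCtrl against 45.4, 44.1 and 46.5 CPM in CAL-29, and 75.5, 73.3 and 73.9 against 87.7, 92.5 and 89.2 CPM in 5637. SDHA, at 108, 115 and 116 against 132, 126 and 137 CPM in CAL-29 and 187, 184 and 197 against 179.5, 185 and 178 CPM in 5637, rose in CAL-29 by 0.22 ± 0.05 (adjusted p = 0.000481) and gave -0.07 ± 0.03 in 5637 (adjusted p = 0.0761). The 5637 value passed the threshold as a fall with total count scaling (adjusted p = 0.00211), upper quartile scaling (adjusted p = 0.00545), a minimum of 10 counts in every library (adjusted p = 0.0406) and without siCtrl replicate 2 (adjusted p = 0.0493). The log2 fold changes of the 4 subunits, which occupy the complex in equal numbers, thus ran from -0.71 to 0.25 in CAL-29 and from -1.05 to 0.27 in 5637.

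**Figure D3:**
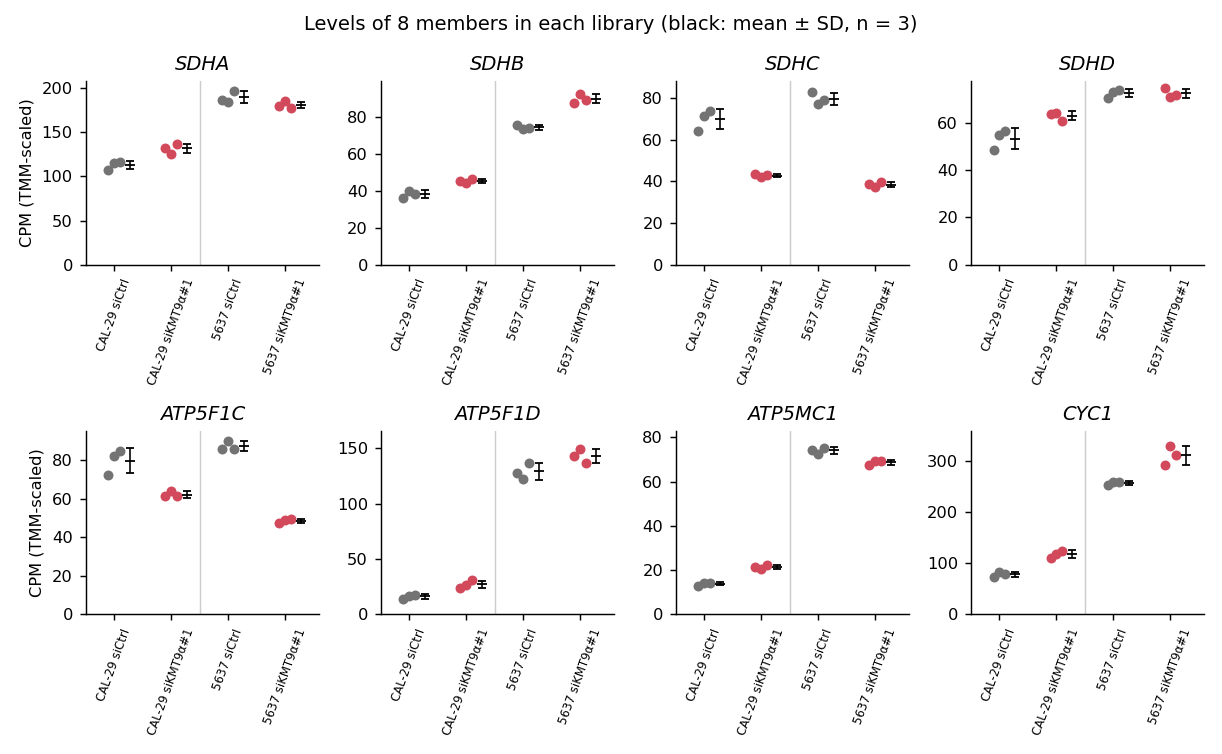
CPM of 8 members in each of the 12 libraries (grey siCtrl, red siKMT9α#1), with the mean ± SD of 3 libraries in black. TMM scaling was done within each line. SDHC and ATP5F1C are lower with siKMT9α#1 in both lines without overlap, SDHB, ATP5F1D and CYC1 are higher in both, and ATP5MC1 is higher in CAL-29 and lower in 5637.

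Complex I has a matrix arm, which oxidises NADH and holds the chain of iron-sulfur clusters, and a membrane arm that pumps protons. In the matrix arm, 10 of 16 members rose and 1 fell in CAL-29 (median 0.24), and 7 rose and 5 fell in 5637 (median 0.09). The membrane arm had 14 of 20 that rose and 1 that fell in CAL-29 (median 0.27), and 6 that rose and 7 that fell in 5637 (median 0.00). Of all genes, 34.3% rose and 35.2% fell in CAL-29, and 35.1% rose and 35.6% fell in 5637. The 5637 shares of 43.8% and 31.2% in the matrix arm and 30.0% and 35.0% in the membrane arm were near those of all genes. NDUFV1, which binds NADH and its flavin, read 121, 122 and 122 CPM in siCtrl and 155, 158 and 169.6 CPM with siKMT9α#1 in CAL-29, and rose by 0.40 ± 0.05 there (adjusted p = 2.08e-07) and by 0.18 ± 0.03 in 5637 (adjusted p = 2.58e-05). NDUFS7, a matrix arm subunit next to the ubiquinone site, rose by 0.60 ± 0.09 and 0.23 ± 0.04 (adjusted p = 3.69e-06 and 4.97e-05) in CAL-29 and 5637.

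Among complex I members that rose in CAL-29 as well as 5637, the accessory subunits NDUFB9 and NDUFA6 had the largest rises when ranked on whichever line changed less. NDUFB9 read 49.7, 52.9 and 49.7 CPM in siCtrl and 64.8, 69.8 and 71.3 CPM with siKMT9α#1 in CAL-29, and 128, 138 and 134 against 166.5, 179 and 169.9 CPM in 5637. Its log2 fold change was 0.43 ± 0.05 in CAL-29 (adjusted p = 5.28e-07) and 0.37 ± 0.04 in 5637 (adjusted p = 4.68e-10). NDUFA6, a matrix arm subunit of the LYR family, rose by 0.34 ± 0.06 and 0.39 ± 0.04 (adjusted p = 4.03e-05 and 3.81e-09), the largest rise of a member past 1e-06 in 5637. NDUFA4, named as a complex I subunit but found in complex IV, rose by 0.33 ± 0.06 and 0.31 ± 0.04 (adjusted p = 4.31e-05 and 8.29e-09).

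In complex I, 3 of 41 members fell in CAL-29 and 14 in 5637, the latter 34.1% beside 35.6% of all genes. NDUFA12, an accessory subunit of the matrix arm, read 37.97, 41.9 and 41.9 CPM in siCtrl and 25.7, 29.2 and 27.1 CPM with siKMT9α#1 in 5637 and fell by 0.57 ± 0.06 (adjusted p = 5.29e-10). In CAL-29 it gave -0.10 ± 0.07 (adjusted p = 0.246), with overlapping groups. NDUFV2, which holds an iron-sulfur cluster beside NDUFV1, fell by 0.50 ± 0.05 in 5637 (adjusted p = 1.09e-09) and gave -0.02 ± 0.07 in CAL-29 (adjusted p = 0.816). Both differences between the lines passed the interaction test, at 0.49 ± 0.09 and 0.50 ± 0.09 (adjusted p = 8.55e-05 and 1.99e-05). NDUFA12, NDUFV2 and NDUFS7 were named after their values were seen, as were TFAM, CYCS, HCCS and SLC25A6 further on.

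NDUFB5 and NDUFA4L2 were among the members with complex I names that fell in both lines. NDUFB5, a membrane arm subunit, changed by -0.20 ± 0.07 and -0.21 ± 0.05 (adjusted p = 0.0114 and 0.000331). Its libraries overlapped in CAL-29, at 53.2, 63.7 and 67.0 against 51.7, 54.4 and 53.6 CPM, and the call there was lost without siCtrl replicate 2 or 3 or without siKMT9α#1 replicate 1 (adjusted p between 0.0529 and 0.118) and under total count scaling. NDUFA4L2, a hypoxia-inducible relative of NDUFA4, changed by -0.62 ± 0.18 and -0.86 ± 0.21 (adjusted p = 0.0038 and 0.000686), from a mean of 4.33 CPM in CAL-29 and 2.08 CPM in 5637. NDUFA4 and NDUFA4L2, which share part of their name, thus went in opposite directions in both lines.

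In complex III, none of the 10 members tested fell in CAL-29, where 35.2% of all genes fell. CYC1, the cytochrome c1 that hands electrons to cytochrome c, showed the largest change, from 73.2, 82.3 and 79.7 to 109.6, 119 and 124.5 CPM in CAL-29 and from 253, 259.5 and 259 to 293, 328 and 311 CPM in 5637. It rose by 0.58 ± 0.06 (adjusted p = 9.18e-09) and 0.27 ± 0.04 (adjusted p = 9.89e-08). UQCRC2, a core subunit on the matrix side, rose by 0.36 ± 0.05 and 0.13 ± 0.04 (adjusted p = 7.33e-07 and 0.00322). UQCRC1, its partner, rose by 0.12 ± 0.05 and 0.10 ± 0.03 (adjusted p = 0.0258 and 0.0111), calls that were lost in CAL-29 without siKMT9α#1 replicate 2 or 3 and in 5637 without siCtrl replicate 1 or siKMT9α#1 replicate 3 (adjusted p between 0.0518 and 0.0877). UQCRFS1, the Rieske iron-sulfur protein, read 65.8, 66.0 and 67.5 against 55.5, 57.3 and 55.6 CPM in 5637, a fall of 0.24 ± 0.04 (adjusted p = 6.62e-06). In CAL-29 UQCRFS1 gave 0.10 ± 0.07 (adjusted p = 0.227) with overlapping groups.

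Complex IV had the lowest median change in CAL-29. COX4I1, the general isoform of subunit 4, rose by 0.16 ± 0.05 in CAL-29 (adjusted p = 0.00772) and gave 0.04 ± 0.03 in 5637 (adjusted p = 0.266). COX5A, a matrix-facing subunit, read 54.9, 67.0 and 63.9 against 83.4, 85.7 and 84.2 CPM in CAL-29, a rise of 0.45 ± 0.06 (adjusted p = 1.44e-06), and gave 0.06 ± 0.04 in 5637 (adjusted p = 0.116). COX6A1 rose in 5637 by 0.14 ± 0.03 (adjusted p = 0.0007) and passed the threshold in CAL-29 with total count scaling alone (adjusted p = 0.0397), and the difference between the lines did not pass the interaction test (-0.07 ± 0.07, adjusted p = 0.417). COX7A2, the general isoform of subunit 7a, had overlapping groups in both lines. It rose by 0.16 ± 0.06 in CAL-29 (adjusted p = 0.0179), a call lost without siKMT9α#1 replicate 1 or 2 (adjusted p = 0.0731 and 0.0692), and gave -0.03 ± 0.05 in 5637 (adjusted p = 0.519). COX7A2L, a relative of COX7A2 that takes part in supercomplexes of III and IV, rose in both lines, by 0.14 ± 0.05 and 0.15 ± 0.04 (adjusted p = 0.0153 and 0.000746). Its call in CAL-29 was lost without siKMT9α#1 replicate 2 (adjusted p = 0.071). No other member grouped by name in complex IV rose in both lines, while NDUFA4, grouped by name in complex I, did.

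COX8A, the smallest general subunit of complex IV, stood at 166, 181 and 184 CPM in siCtrl and 122, 124 and 122 CPM with siKMT9α#1 in 5637. That was a fall of 0.53 ± 0.04 (adjusted p = 3.49e-13). In CAL-29, at 44.9, 54.1 and 52.6 against 44.1, 47.5 and 43.9 CPM, the groups overlapped and the change was -0.16 ± 0.07 (adjusted p = 0.0369). That call was lost without siCtrl replicate 2 or 3 and without siKMT9α#1 replicate 1 or 3 (adjusted p between 0.121 and 0.234), and also with DESeq2 (adjusted p = 0.0762), with RLE scaling (adjusted p = 0.0503) and with total count scaling (adjusted p = 0.285). The difference between the lines was 0.38 ± 0.08 (interaction, adjusted p = 0.000144).

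Complex V consists of the F1 head that makes ATP, a peripheral stalk, the membrane-embedded ring of c subunits and small membrane subunits. The 5 subunits of F1 did not move together. ATP5F1A, the alpha subunit, rose by 0.37 ± 0.05 in CAL-29 (adjusted p = 6.91e-07) and gave -0.03 ± 0.03 in 5637 (adjusted p = 0.325, but a fall at 0.00816 with total count and 0.0294 with upper quartile scaling). ATP5F1B, the catalytic beta subunit, gave -0.07 ± 0.05 in CAL-29 (adjusted p = 0.195, but -0.12 at 0.00483 without siCtrl replicate 1) and fell by 0.26 ± 0.03 in 5637 (adjusted p = 8.35e-09), from 620.4, 631 and 626 to 532, 521 and 519 CPM. ATP5F1C, the gamma subunit that turns inside the head (chromosome 10, 7830110 to 7849778, GRCh37), read 72.5, 82.2 and 84.9 against 61.3, 64.2 and 61.2 CPM in CAL-29 and 86.0, 90.2 and 86.1 against 47.4, 49.1 and 49.3 CPM in 5637. No siKMT9α#1 library reached a siCtrl library in either line. ATP5F1C was the only complex V member that fell in both lines, by 0.36 ± 0.06 in CAL-29 (adjusted p = 1.22e-05) and 0.85 ± 0.04 in 5637 (adjusted p = 6.81e-17), and the response was higher in CAL-29 by 0.50 ± 0.07 (interaction, adjusted p = 1.24e-06).

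ATP5F1D, the delta subunit, went the other way. It was at 13.6, 17.04 and 18.0 CPM in siCtrl and 24.1, 26.6 and 30.8 CPM with siKMT9α#1 in CAL-29, and at 128, 122 and 137 against 143, 149.5 and 137 CPM in 5637. The rise of 0.74 ± 0.10 in CAL-29 (adjusted p = 1.39e-06) was the largest of any member past 1e-06 there, while the rise in 5637 was 0.15 ± 0.04 (adjusted p = 0.00193). In the peripheral stalk, ATP5PB rose in both lines, by 0.33 ± 0.05 and 0.17 ± 0.03 (adjusted p = 1.19e-05 and 3.06e-05). Among the small membrane subunits, ATP5MPL rose by 0.33 ± 0.06 and 0.22 ± 0.04 (adjusted p = 0.000109 and 7.39e-05).

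The c ring is made of 1 protein encoded by 3 genes, ATP5MC1, ATP5MC2 and ATP5MC3, whose products differ in the import sequence that is cut off. ATP5MC1 (chromosome 17, 46970127 to 46973233, GRCh37) read 13.0, 14.2 and 14.1 CPM in siCtrl and 21.5, 20.4 and 22.5 CPM with siKMT9α#1 in CAL-29, a rise of 0.64 ± 0.08 (adjusted p = 6.07e-07). In 5637 it read 74.3, 72.6 and 75.4 against 67.5, 69.3 and 69.4 CPM, a fall of 0.11 ± 0.04 (adjusted p = 0.0151) that lost its call without siCtrl replicate 3 or siKMT9α#1 replicate 1 (adjusted p = 0.0541 and 0.0527). ATP5MC2 and ATP5MC3 gave 0.05 ± 0.06 and 0.01 ± 0.06 in CAL-29 (adjusted p = 0.427 and 0.897) and fell in 5637 by 0.14 ± 0.04 and 0.18 ± 0.04 (adjusted p = 0.00246 and 0.000431). As a share of the counts on the 3 genes, ATP5MC1 made up 7.82 ± 0.46% (SD, n = 3) in CAL-29 siCtrl and 11.4 ± 0.57% with siKMT9α#1, and 23.6 ± 0.68% and 24.2 ± 0.51% in 5637. The share of ATP5MC1 in CAL-29 thus remained below that of any 5637 library in both conditions.

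Between the lines, the members changed in a similar order but around a different centre. The Spearman correlation of the log2 fold changes in CAL-29 and 5637, which have separate control libraries, was 0.647 over 86 members and 0.534 over 13674 genes tested in both lines, as a description across genes that are not independent. Of the 86 members, 22 rose in both lines, where 22.6% of all genes did, and 7 fell in both, where 21.7% did. All 7 members that fell in CAL-29, SDHC, ATP5F1C, COX8A, COX6B2, NDUFA4L2 and NDUFB5 among them, also fell in 5637. Of all genes that fell in CAL-29, 2962 fell in 5637, 666 rose and 1143 were not called there. Another 27 rose in CAL-29 and were not called in 5637, where 8.11% of all genes did so, and 16 fell in 5637 and were not called in CAL-29, where 9.08% did. The log2 fold change was higher in CAL-29 than in 5637 for 78 of the 86 and for 52.9% of all genes.

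**Figure D4:**
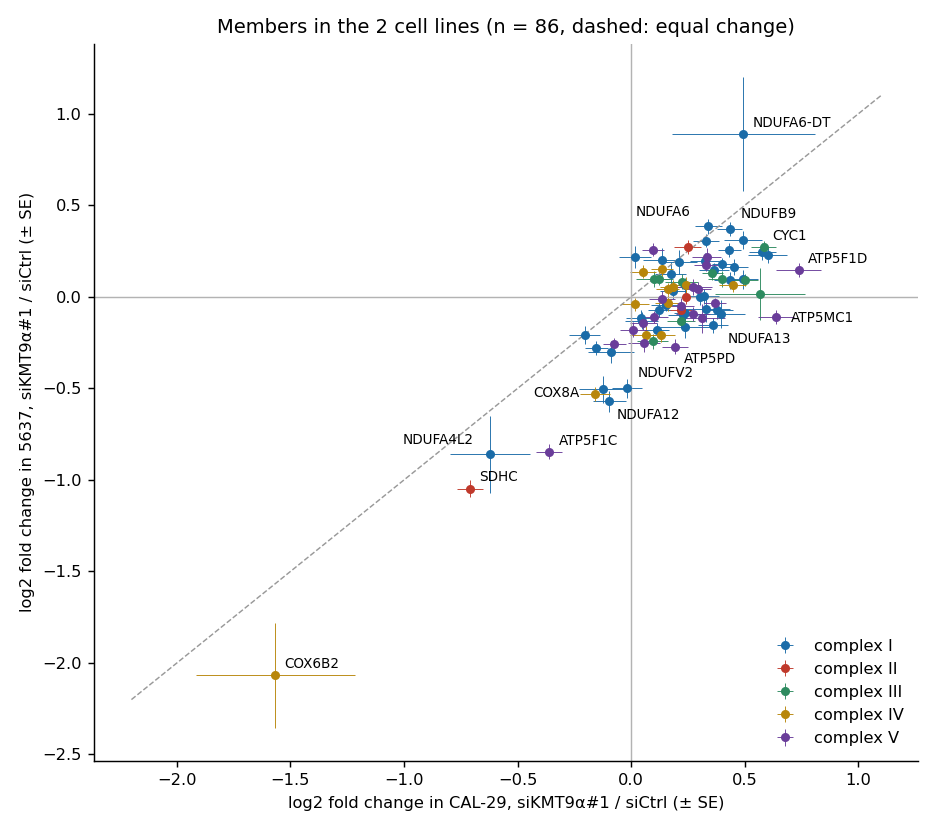
Log2 fold change (siKMT9α#1 over siCtrl, ± SE) of the 86 tested members in CAL-29 (horizontal) and 5637 cells (vertical), coloured by complex, with the line of equal change dashed. Of the points, 78 lie below the dashed line, SDHC and ATP5F1C are low on both axes, and ATP5MC1 lies right of 0 and below 0. COX6B2, NDUFA4L2 and NDUFA6-DT have few counts and wide errors.

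Tested directly with an interaction term over all 12 libraries, the response of 58 members was higher in CAL-29 than in 5637 and that of 1, ATP5MF-PTCD1, was lower (-0.15 ± 0.06, adjusted p = 0.0403, a call lost on leaving out any of 9 of the 12 libraries), where 28.5% of 15396 genes were higher and 21.9% lower. The median difference was 0.25 for the members and 0.04 for all genes. It was 0.23 for complex I, 0.28 for complex II, 0.32 for complex III, 0.20 for complex IV and 0.27 for complex V. All 5 subunits of F1, all 4 of the peripheral stalk and all 3 c subunit genes were higher in CAL-29. Without CAL-29 siCtrl replicate 1, 47 members were higher in CAL-29.

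Of the 86, 7 members rose in CAL-29 and fell in 5637, where 5.02% of all genes did. No member did the reverse, where 666 of 13674 genes did. The 7 were ATP5MC1, NDUFA13, ATP5PD, ATP5F1E, UQCRB, NDUFS1 and the readthrough NDUFC2-KCTD14. NDUFA13, a membrane arm subunit also known as GRIM19, read 44.5, 47.8 and 51.5 against 56.4, 62.9 and 65.5 CPM in CAL-29 and 129, 138 and 134 against 112, 123 and 124 CPM in 5637. It rose by 0.36 ± 0.06 (adjusted p = 4.56e-05) and fell by 0.16 ± 0.04 (adjusted p = 0.000961), a difference of 0.53 ± 0.08 (interaction, adjusted p = 1.89e-06). ATP5PD, the d subunit of the peripheral stalk, read 45.1, 50.3 and 51.2 against 54.5, 56.96 and 56.2 CPM in CAL-29 and 104, 117 and 116 against 90.2, 95.5 and 93.2 CPM in 5637, for a difference of 0.48 ± 0.07 (adjusted p = 2.91e-06). UQCRB, a subunit of complex III at the ubiquinone side, differed by 0.37 ± 0.08 (adjusted p = 0.000203).

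Some of these falls in 5637 were small. NDUFS1, the largest core subunit of complex I, rose by 0.24 ± 0.05 in CAL-29 (adjusted p = 0.000169) and changed by -0.09 ± 0.04 in 5637 (adjusted p = 0.0275). Without siCtrl replicate 1 or 2 or siKMT9α#1 replicate 2 or 3 the call of NDUFS1 in 5637 was lost (adjusted p between 0.0542 and 0.095). ATP5F1E, the epsilon subunit of F1, rose by 0.27 ± 0.08 in CAL-29 (adjusted p = 0.00324, but 0.0558 with DESeq2) and changed by -0.09 ± 0.04 in 5637 (adjusted p = 0.0252), a call lost without siCtrl replicate 2 or siKMT9α#1 replicate 1 or 3 (adjusted p between 0.0622 and 0.162) and in the joint fit of all 12 libraries (adjusted p = 0.235). Their differences between the lines were 0.34 ± 0.06 and 0.38 ± 0.09 (adjusted p = 1.09e-05 and 0.00116).

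The control cells of the lines also differed. With siCtrl, 71 of the 86 members tested were lower in CAL-29 than in 5637 and 9 were higher, where 42.5% of 15396 genes were lower and 42.9% higher. The median log2 difference was -0.64, a level in CAL-29 of 0.64 times that in 5637, beside 0.01 for all genes. It was -0.80 in complex I, -0.66 in complex II, -0.95 in complex III, -0.24 in complex IV and -0.65 in complex V. ATP5F1D showed the lowest value, -3.06 ± 0.08 (adjusted p = 1.7e-24), followed by NDUFS7 at -2.53 ± 0.06 and ATP5MC1 at -2.50 ± 0.06. The complex IV subunits COX6A1 and COX7A2L, at -0.07 ± 0.05 and -0.03 ± 0.04 (adjusted p = 0.173 and 0.484), were not called.

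Base composition moved with this difference. Across 85 members with a transcript in the annotation, the Spearman correlation of the log2 difference between the siCtrl groups with the GC content of the transcript was -0.46, beside -0.0925 over 14959 genes. Members with at least 55% GC had a median difference of -1.44 (n = 21) and the others one of -0.50 (n = 64). The siRNA response was less tied to GC, with 0.18 in CAL-29 and 0.0998 in 5637. The part of base composition or library preparation in the difference between the lines was not tested, and each line is represented by its own set of libraries.

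**Figure D5:**
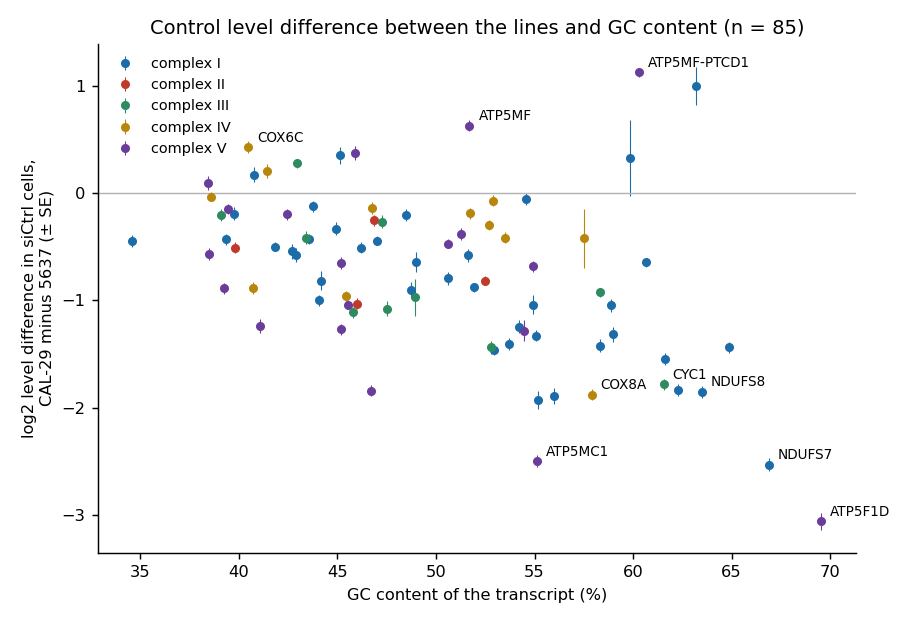
Log2 difference in level between the siCtrl libraries of CAL-29 and 5637 (± SE) of 85 members against the GC content of their transcript in percent, coloured by complex. Most points lie below 0, and the lowest, ATP5F1D, NDUFS7 and ATP5MC1, have a GC content of at least 55%.

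Per kilobase of transcript, the siCtrl levels of the general subunits ran from 2.60 to 178 reads per kilobase per 1e+06 counts (RPKM) in complex I of CAL-29 and from 16.3 to 379 in complex V. In CAL-29 the median was 41.2 RPKM in complex I, 40.8 in complex II, 52.5 in complex III, 134 in complex IV and 59.6 in complex V, and in 5637 it was 61.6, 65.6, 71.4, 180.4 and 102. COX6A1 was the highest member in both lines, at 394 and 395 RPKM. The 4 subunits of complex II lay close together, between 37.5 and 53.4 RPKM in CAL-29 and between 54.0 and 73.1 in 5637, and SDHC was the highest of the 4 in CAL-29 siCtrl. Lengths are those of the MANE Select transcripts, which need not be the transcripts that were counted.

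Because siKMT9α#1 could act on transcripts that pair with its seed, the 3′ UTRs of the members were searched for ACATTCA, the 7 bases that pair with positions 2 to 8 of its guide strand. In the longest annotated 3′ UTR (GENCODE, GRCh37), 7 of 84 tested members held it, or 8.33%, against 15.0% of the genes tested in CAL-29 and 15.3% in 5637. Over all genes tested the median log2 fold change was -0.26 with the site and 0.03 without it in CAL-29, and -0.30 and 0.03 in 5637. Among the members it was 0.22 with the site and 0.22 without it in CAL-29, and -0.070 and 0.0018 in 5637. The sites of 6 of the 7 members are printed 5′ to 3′ with the 7 bases in capitals, since they include SDHC.
SDHC: acacattattACATTCAcccatctttc
NDUFB5, first site: tttaccataaACATTCAggattttcaa
NDUFB5, second site: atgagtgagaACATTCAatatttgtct
NDUFS1: tggagacaacACATTCAaaacatagca
NDUFA5: ttttctaatcACATTCAgaggagcgaa
NDUFA9: tatgctagtaACATTCAaattactctc
UQCR11: aaagcaacgaACATTCActctctcaca

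The SDHC site occupies chr1:161332263-161332269 on the plus strand (GRCh37), 40 bases after the stop codon. Both NDUFB5 sites, at chr3:179343005-179343011 and chr3:179343576-179343582 on the plus strand, lie 1177 and 1748 bases after it. The others lie at chr2:206980007-206980013 on the minus strand (NDUFS1, 8896 bases after the stop), chr7:123179014-123179020 on the minus strand (NDUFA5, 3153 bases), chr12:4798270-4798276 on the plus strand (NDUFA9, 1996 bases) and chr19:1597812-1597818 on the minus strand (UQCR11, 425 bases). Members with the site went different ways. SDHC and NDUFB5 fell in both lines, NDUFB9 and NDUFA5 rose in both, and NDUFS1 rose in CAL-29 and fell in 5637. NDUFA9 and UQCR11 rose in CAL-29, by 0.12 ± 0.05 and 0.22 ± 0.07 (adjusted p = 0.036 and 0.00975), and were not called in 5637. ATP5F1C, COX8A, NDUFA12 and NDUFV2 do not hold these 7 letters in the 3′ UTRs searched. None of the 84 members held the site in its shortest annotated 3′ UTR. Whether the site contributed to the fall of SDHC was not tested.

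Promoters of subunit genes are known for binding sites of NRF1, of the ETS factor GABP and of YY1. RefSeq (GRCh38.p14) gave the 250 bases before the start of transcription for 74 of the 94 members, 65 of them general subunits. CCGGAAG, an ETS core, was found on either strand in 26.2% of these 65, in 14.9% of the promoters of genes tested and in 8.82% of all promoters in the table. An NRF1 palindrome, CGCATGCG with a G before and a C after it, was found in 3 of 65 (ATP5F1C, NDUFB4 and SDHD), against 1.83% of genes tested, and the YY1 core ATGGCGG in 5 of 65, against 3.79%. Of the 17 general subunits with the ETS core, 12 rose and 1 fell in CAL-29 and 5 rose and 6 fell in 5637, with medians of 0.22 and 0.05. Over all 78 general subunits 66.7% rose and 6.41% fell in CAL-29, and 32.1% rose and 34.6% fell in 5637, so the counts with the core were close to those shares. Stretches of 3 of these promoters are shown with the ETS core in capitals (CTTCCGG where it lies on the other strand), for a member that rose in both lines (SDHB), one that fell in both (COX8A) and one that rose in CAL-29 and fell in 5637 (NDUFA13).
SDHB: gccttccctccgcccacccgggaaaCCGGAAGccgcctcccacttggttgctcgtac
COX8A: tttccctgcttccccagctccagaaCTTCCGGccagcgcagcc
NDUFA13: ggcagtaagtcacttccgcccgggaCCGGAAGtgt

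These stretches lie at chr1:17054129-17054185 on the minus strand, chr11:63974577-63974619 on the plus strand and chr19:19516190-19516224 on the plus strand of GRCh38.p14. A match shows that the letters are present and not that a factor binds.

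Other genes of the pathway were followed from lists of known function. NDUFAB1, the acyl carrier protein that is also a complex I subunit but lies outside the name rule, rose by 0.35 in CAL-29 (adjusted p = 0.000322) and gave 0.09 in 5637 (adjusted p = 0.087). Assembly factors put the complexes together without being part of them. Of 59 tested, 31 rose and 8 fell in CAL-29 (median 0.24), and 24 rose and 15 fell in 5637 (median 0.08). These are 52.5% and 13.6% in CAL-29 beside 34.3% and 35.2% of all genes, and 40.7% and 25.4% in 5637 beside 35.1% and 35.6%, and the same shares of all genes apply to the lists that follow. ECSIT and NDUFAF4, which assemble complex I, rose by 1.22 and 1.20 in CAL-29 (adjusted p = 2.14e-09 and 5.38e-10) and by 1.41 and 0.91 in 5637 (adjusted p = 1.24e-19 and 3.74e-12). ECSIT increased from 6.81 to 15.9 CPM in CAL-29 and from 21.9 to 58.4 CPM in 5637, and TMEM126B, which works with ECSIT, rose by 0.81 and 0.50 (adjusted p = 1.08e-08 and 6.2e-09).

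By complex, assembly factors that rose and fell in CAL-29 were 12 and 2 of 19 for complex I, 2 and 0 of 4 for complex II, 3 and 1 of 6 for complex III, 12 and 5 of 26 for complex IV and 2 and 0 of 4 for complex V. In 5637 they were 9 and 4, 1 and 1, 3 and 2, 10 and 7, and 1 and 1. For complex II, SDHAF1, which helps to insert iron-sulfur clusters into SDHB, rose by 0.31 and 0.34 (adjusted p = 0.00505 and 4.45e-05). LYRM7, TTC19 and BCS1L, which mature the Rieske protein of complex III, rose in both lines, by 0.51, 0.52 and 0.28 in CAL-29 and by 0.61, 0.48 and 0.49 in 5637. COA7, HIGD1A and LRPPRC of the complex IV list rose by 1.03, 0.45 and 0.77 in CAL-29 and 0.58, 0.46 and 0.39 in 5637, and TMEM70 of complex V by 0.35 and 0.22.

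Cytochrome c (CYCS) and its heme lyase HCCS rose in CAL-29 and fell in 5637, the pattern of ATP5MC1 and NDUFA13. CYCS changed by 0.37 and -0.09 (adjusted p = 1.39e-06 and 0.0285) and HCCS by 0.22 and -0.18 (adjusted p = 0.0115 and 0.0056). Among regulators of mitochondrial biogenesis, 12 of 19 rose and 1 fell in CAL-29, and 8 of 20 rose and 2 fell in 5637, where the 40.0% that rose was near the 35.1% of all genes. ESRRA, a nuclear receptor that activates subunit genes, rose by 0.52 and 0.62 (adjusted p = 6e-09 and 4.02e-14), its coactivator PPARGC1B by 1.22 and 0.44 (adjusted p = 5.45e-09 and 7.61e-08), and POLG2, of the mitochondrial DNA polymerase, by 0.45 and 0.35. TFAM, which packages mitochondrial DNA, rose by 0.36 in CAL-29 (adjusted p = 2.62e-05) and gave -0.05 in 5637 (adjusted p = 0.414).

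Of 13 TCA cycle enzymes, 8 rose and 2 fell in CAL-29 (61.5% and 15.4%, beside 34.3% and 35.2% of all genes), and 7 rose and 3 fell in 5637 (53.8% and 23.1%, beside 35.1% and 35.6%). Citrate synthase (CS) rose by 0.62 and 0.73 (adjusted p = 2.52e-10 and 1.8e-17). SUCLG2, a subunit of succinyl-CoA synthetase, fell by 0.50 and 1.18 (adjusted p = 0.000129 and 2.76e-14). Of 3 carriers of phosphate and adenine nucleotides tested, 2 rose and 1 fell in CAL-29 and 1 rose and 1 fell in 5637. The phosphate carrier SLC25A3 rose by 0.57 and 0.64 (adjusted p = 6.36e-09 and 5.47e-17). The adenine nucleotide carrier SLC25A4 fell by 1.04 and 0.41 (adjusted p = 1.28e-10 and 0.000118). SLC25A6, a related carrier, was listed at 0 in every library. Why was not tested, and the 0 is not taken to mean that the gene is silent. SUCLG2 and SLC25A4 each hold 1 copy of ACATTCA in their longest 3′ UTR, and ECSIT, NDUFAF4, CS and SLC25A3 hold none. LRPPRC, which rose in both lines, holds 2 copies. Whether the site contributed to any of these changes was not tested.

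Of the 9 tissue-restricted isoforms or copies, COX6B2, NDUFA4L2 and UQCRHL passed the count filter. Of the 94 members, 8 had too few counts to be tested: COX4I2, COX6A2, COX7A1, COX7B2, COX8C, ATP5MGL and the pseudogenes UQCRBP1 and ATP5F1EP2, none of which exceeded 7.5 counts in a library. COX4I2 (the lung isoform of subunit 4) and COX7B2 had no count in any of the 12 libraries, which allows a level of up to between 0.0854 and 0.123 CPM per library at a limit of 3 counts, covering counting error only. COX6A2, the muscle isoform of COX6A1, had 1.5 counts over all libraries, and COX7A1, the muscle isoform of COX7A2, at most 5.5 in any library. COX6B2, known from testis, was at 1.55, 1.80 and 1.13 against 0.292, 0.427 and 0.835 CPM in CAL-29 and 2.24, 1.86 and 1.63 against 0.674, 0.222 and 0.46 CPM in 5637. It changed by -1.57 ± 0.35 and -2.07 ± 0.29 (adjusted p = 0.000525 and 2.87e-07).

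Some members cannot be read apart from a neighbour. Readthrough transcripts share exons with their first gene, so ATP5MF-PTCD1, which rose in 5637 by 0.26 ± 0.04 (adjusted p = 3.89e-07), and NDUFC2-KCTD14 may hold reads of ATP5MF, PTCD1, NDUFC2 and KCTD14. NDUFB2-AS1 overlaps NDUFB2 on the other strand, and whether the counting used strand is not given in the sources used here, so their values may share reads. UQCRHL is a near-identical copy of UQCRH, and its log2 fold change of 0.57 ± 0.20 in CAL-29 (adjusted p = 0.0162) beside 0.50 ± 0.06 for UQCRH may hold reads of the latter. NDUFA6-DT, below 1 CPM on average in siCtrl, rose in 5637 by 0.89 ± 0.31 (adjusted p = 0.0127).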

How the data were processed

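RNA of 12 libraries was analysed: 2 lines, 2 siRNAs and 3 libraries each, grouped by their labels. The labels do not name the siRNA and the tables call it si270. That it is siKMT9α#1 was taken from the study's results. Alignment (STAR, hg19), counting on RefSeq transcripts (HOMER) and edgeR testing were done by the authors. The deposited tables hold estimated counts without normalization for 37400 transcripts, in steps of 0.5, with every per-sample column used. The authors' deposited p-value and log2 fold change columns of their own comparison were not used.

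Of several transcripts of a symbol, only the one with most counts was used, rounded to whole counts. The edgeR package (version 4.0.16, R 4.3.3) gave TMM scaling, the filterByExpr filter and, separately for each line, quasi-likelihood F tests of siKMT9α#1 against siCtrl. P-values were adjusted over all genes tested (Benjamini-Hochberg), and the SE is the log2 fold change divided by the square root of F. CPM are TMM-scaled within a line. Differences between the lines came from a fit of all 12 libraries. The smallest p of an exact permutation test in this design is 0.1. The tests were checked on simulated counts. No pair of replicates was as close as counting error alone allows, so their spread and not the depth limits the precision of well-counted genes, while members with few counts are limited by depth.

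The members and lists were chosen with earlier results of these data known. Members named were SDHA to SDHD, CYC1 and fixed core subunits and isoforms, up to 2 per complex and direction with the largest smaller change among those called in both lines, up to 5 with calls in opposite directions, the largest rise and fall in each line past 1e-06 with a mean count of at least 50, and up to 3 genes of each other list. Positions, lengths and 3′ UTRs came from GENCODE on GRCh37, the assembly that hg19 denotes, and all 94 members matched, 92 through the RefSeq accession and 2 by symbol. Protein sequences were not analysed here. Some genes that the naming rule selects are not reported here. Alternatives were other scalings, other count filters, DESeq2 1.42.0, a joint fit, the replicate number as a term, 1 transcript for both lines, other groupings of members and each library left out in turn.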

Additional observations from a re-analysis of the deposited data

Results flagged for a closer look

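The response of 59 of the 86 members tested differed between the lines by the interaction test over all 12 libraries, 58 of them toward higher values in CAL-29. Among members called in opposite directions, the difference of the log2 fold change in CAL-29 minus that in 5637 was 0.76 for ATP5MC1, 0.53 for NDUFA13, 0.48 for ATP5PD, 0.38 for ATP5F1E and 0.37 for UQCRB. The culture medium, the siRNA concentration and the transfection reagent cannot be told apart from the cell line.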

How the results depend on the processing

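The calls of members in either direction at an adjusted p below 0.05 stayed within 1.5 times the reported count in both lines under every alternative, except that 4 and not 7 members fell in CAL-29 under scaling by total counts and without siCtrl replicate 3. Counts past 1e-06 moved more. In CAL-29, where 13 rose and 1 fell, 21 rose and 2 fell with DESeq2, 28 and 2 with no filter, 22 and 2 in the joint fit and 28 and 2 with a replicate block. In 5637, where 7 rose and 10 fell, 13 rose with no filter, 4 with total count scaling and 4 with upper quartile scaling, and 3 rose and 6 fell in the joint fit. Correlations of deviations lay between -0.0134 and 0.0819 for siCtrl and siKMT9α#1 libraries of the same replicate number. They lay between -0.0781 and 0.0386 for those of different numbers. The highest of each line, 0.0819 in CAL-29 and 0.0541 in 5637, belonged to replicate 1 of both groups. The block gave 59 rose and 7 fell at an adjusted p below 0.05 in CAL-29 and 29 and 30 in 5637. The 1 member lower in CAL-29 in its response became 0 with no filter or total count scaling.

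Leaving out each library in turn, 45 to 60 members rose and 4 to 9 fell in CAL-29, and past 1e-06 between 4 and 17 rose and between 1 and 2 fell, with 5 without siCtrl replicate 2, 7, 5 and 4 without siKMT9α#1 replicates 1, 2 and 3. The count of falls past 1e-06 was 2 without siCtrl replicate 1. In 5637, 23 to 34 rose and 26 to 30 fell, and past 1e-06 between 3 (without siKMT9α#1 replicate 2) and 7 rose, 4 without siKMT9α#1 replicate 3, and between 6 (without siKMT9α#1 replicate 3) and 9 fell. Responses higher in CAL-29 numbered 47 to 63, and lower ones 0 to 2.

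Medians moved with the scaling as the median of all genes did. With total count scaling the median was 0.32 for complex I and 0.31 for complex II in CAL-29. In 5637 it was -0.053 for all members with that scaling, -0.050 for complex I, -0.089 for complex II, 0.040 for complex III, -0.050 for complex IV and -0.15 for complex V. With upper quartile scaling it was -0.041 for all members, -0.038 for complex I, -0.076 for complex II and -0.13 for complex V in 5637. Over the left-out libraries the 5637 medians ranged from -0.048 to -0.015 for complex II and from -0.11 to -0.029 for complex V. The seed site was found in 0 members when the shortest 3′ UTR was used. Among named members, scaling also ended the calls of UQCRC1 in both lines, COX7A2 and COX8A in CAL-29 and UQCRC2 in 5637, and the call of NDUFS1 in 5637 was lost with DESeq2, with no filter and in the joint fit. UQCRFS1 and ATP5MC2 in CAL-29 and COX5A in 5637 passed the threshold as rises without siCtrl replicate 3, and UQCRFS1 also with total count scaling. The causes were not tested. No value of N6AMT1 or of a member named changed direction where it was called.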
